A study of Mus musculus with 16 samples.

Results

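The genes described here are 10 components and well-known targets of glucocorticoid and mineralocorticoid signaling, chosen by name from the 22372 protein-coding genes of the table and found by their Ensembl gene identifiers. They comprise 2 receptors (Nr3c1 and Nr3c2), 1 enzyme that makes active glucocorticoid inside cells (Hsd11b1), and 7 genes known to respond to these hormones (Fkbp5, Tsc22d3, Sgk1, Zbtb16, Hif3a, Klf9 and Klf15). All 10 were among the 13331 genes with enough signal to be tested. RNA-seq was performed on pieces of heart ventricle from C57BL/6J mice that were between 10 and 12 weeks old when the experiment began. Transverse aortic constriction (TAC), a narrowing of the aortic arch that forces the left ventricle to pump against high pressure, was compared with a sham operation in which the aorta was not constricted. Mice received THZ1, a covalent inhibitor of the transcriptional kinases CDK7, CDK12 and CDK13, at 10 mg/kg by intraperitoneal injection in 2 doses a day from day 1 to day 60, or vehicle. This dosing is that of the sample labels, which give no schedule for the vehicle, whereas the methods of the study describe daily injections of either. With vehicle the groups are called Sham-Veh and TAC-Veh, and with THZ1 they are called Sham-THZ1 and TAC-THZ1. Each of these 4 groups held 4 mice, every mouse giving 1 library. None of the animals carried a transgene, and neither circulating hormone levels nor the hour of tissue harvest was given in the sources used here.

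Glucocorticoids and aldosterone cross the cell membrane and bind 2 related nuclear receptors, which wait in the cytoplasm in a complex with heat shock proteins and co-chaperones and, once bound, enter the nucleus and switch genes on or off from DNA elements of near-palindromic sequence. Cardiomyocytes express both receptors but little of the enzyme that inactivates glucocorticoid, so that the mineralocorticoid receptor of the heart is thought to be occupied largely by glucocorticoid. Blockers of that receptor are established drugs for heart failure, and the hormone response rises with stress and follows the time of day.

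The recovered read totals ran from 21431703 to 35812869 per library, of which 13 mitochondrial genes took 33.2% to 44.7%. Summed cardiomyocyte markers stood between 1597276 and 1660346 normalized counts in Sham-Veh, and the 3 atrial markers Sln, Myl7 and Myl4 together never passed 82.3. Of all libraries, TAC-Veh replicate 1 stood apart most. It had the highest value of all 16 libraries for 19.3% of tested genes and the lowest for 19.5%, and for 5 of the 10 genes described here it was the highest and for 2 the lowest. TAC-Veh replicate 2 came next, with the highest value for 14.7% of tested genes and the lowest for 15.6%. It was the lowest for 3 of the 10 genes. Results for the 10 genes that rest on replicate 1 are given with and without it, as are the counts and named genes of the wider lists where it changes a call. The wider lists were not counted without replicate 2. Replicates are separate mice, so the tests measure the spread between animals.

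Matches to the consensus DNA element of the receptors are shown first, because 2 of the genes carry the complete element close to a transcript start. The consensus element searched was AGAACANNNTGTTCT, which is the 6-base site AGAACA, any 3 bases, and the same site on the other strand (TGTTCT). It reads the same on both strands. Within 5 kb on either side of annotated transcript starts (build NCBIM37, mm9), it was found for Fkbp5 (1 of 3 starts) and Sgk1 (4 of 7 starts) and for none of the other 8 genes. Over the whole annotation 79 of 46028 starts (0.172%) and 52 of 22372 genes (0.232%) held it. Capitals mark the 15-base element within 7 bases of flank on each side, 5′ to 3′ on the strand of the gene. The Sgk1 match, at chr10:21713500-21713528 on the plus strand, lay in an annotated intron, with its centre at -182 bases from the nearest transcript start (negative values lie before the start) and at -958, -1202 and 1485 bases from the other 3. The Fkbp5 match, at chr17:28579357-28579385 on the minus strand, lay in an intron with its centre at -704 bases from a start.
Sgk1 element: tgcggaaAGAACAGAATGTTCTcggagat
Fkbp5 element: ttgtttgAGAACAGCTTGTTCTaggcttt

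The same Sgk1 letters recur in a 300-base RefSeq promoter (build GRCm38.p6, chr10:21993640-21993939, plus strand), which covers 250 bases before and 50 after the annotated start. Of 32851 such RefSeq promoters, 6233 (19.0%) held the 6-base site on either strand and 3 (0.00913%) held the complete element. Promoters were given for 8 of the genes, 15 in all. The 6-base site stood in 3 of 6 Sgk1 promoters and 1 of 3 Tsc22d3 promoters, and the complete element in the 1 Sgk1 promoter printed here, again with the element in capitals. A match describes letters and does not show that a receptor binds there, and a window without one says nothing about the receptor.
Sgk1 promoter: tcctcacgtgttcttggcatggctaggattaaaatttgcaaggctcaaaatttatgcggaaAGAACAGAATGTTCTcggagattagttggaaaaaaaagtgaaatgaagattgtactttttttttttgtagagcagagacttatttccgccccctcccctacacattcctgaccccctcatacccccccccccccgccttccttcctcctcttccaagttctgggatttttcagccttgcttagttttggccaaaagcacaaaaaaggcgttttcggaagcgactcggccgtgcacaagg

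In Sham-Veh hearts the order of the genes by level per length, in normalized counts per kilobase of exon, placed the 2 Krüppel-like factors at the top and Hif3a at the bottom. Klf9 averaged 828, Klf15 462, Tsc22d3 452, Nr3c1 323, Sgk1 277, Zbtb16 223, Hsd11b1 167, Nr3c2 104, Fkbp5 75.7 and Hif3a 6.44. The glucocorticoid receptor transcript thus stood above the mineralocorticoid receptor transcript on this scale in every Sham-Veh library. Neighbors in this order that overlapped between libraries were Klf15 and Tsc22d3, Nr3c1 and Sgk1, Sgk1 and Zbtb16, Zbtb16 and Hsd11b1, and Nr3c2 and Fkbp5, and the other 4 neighboring pairs did not overlap. Hif3a, a regulator of the hypoxia response that glucocorticoids induce in many tissues, was covered by only 8 to 68 reads per library, whereas each of the other 9 genes had at least 176 in every library. Differences in Hif3a are therefore the least precise of the 10.

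**Figure D1:**
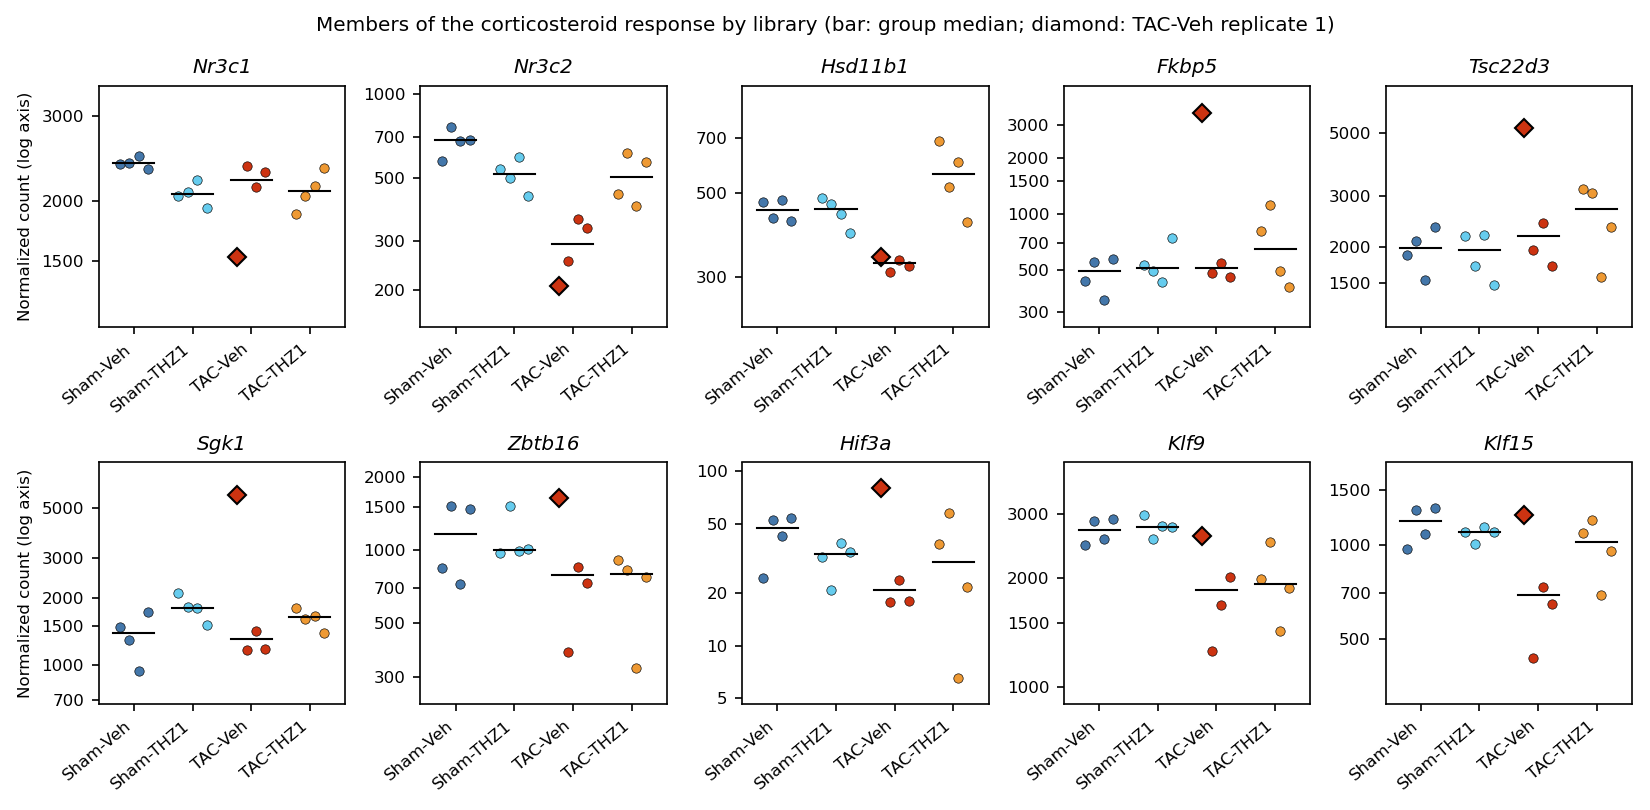
Normalized counts of the 10 genes in each of the 16 libraries, 1 panel per gene, on log axes. Points are single mice, bars are group medians and the diamond is TAC-Veh replicate 1. Nr3c2 and Hsd11b1 are low in all 4 TAC-Veh libraries, whereas for Fkbp5, Tsc22d3, Sgk1, Zbtb16 and Hif3a the diamond lies above every other library of the 16.

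Pressure overload lowered 4 of the 10 genes and raised none. Nr3c2, Hsd11b1, Klf9 and Klf15 fell in TAC-Veh against Sham-Veh (adjusted p under 0.05, limma across all tested genes with Benjamini-Hochberg adjustment), and the other 6 did not pass the test. Of all tested genes, 45.0% were called in this comparison, 21.4% higher and 23.6% lower, so that a count of 4 lower in 10 lies above the background share while the total of 4 called lies close to it. The median log2 fold change of the 10 was -0.46 beside -0.0030 for all tested genes, with 7 of the 10 below 0. THZ1 under TAC raised 2 of the 10, Nr3c2 and Hsd11b1, where 29.4% of all genes were called (15.1% higher and 14.2% lower), with a median of -0.012 for the 10 beside 0.015 for all genes. Both comparisons use the same 4 TAC-Veh libraries, and a TAC-Veh value that is low or high by chance moves them in opposite directions.

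**Figure D2:**
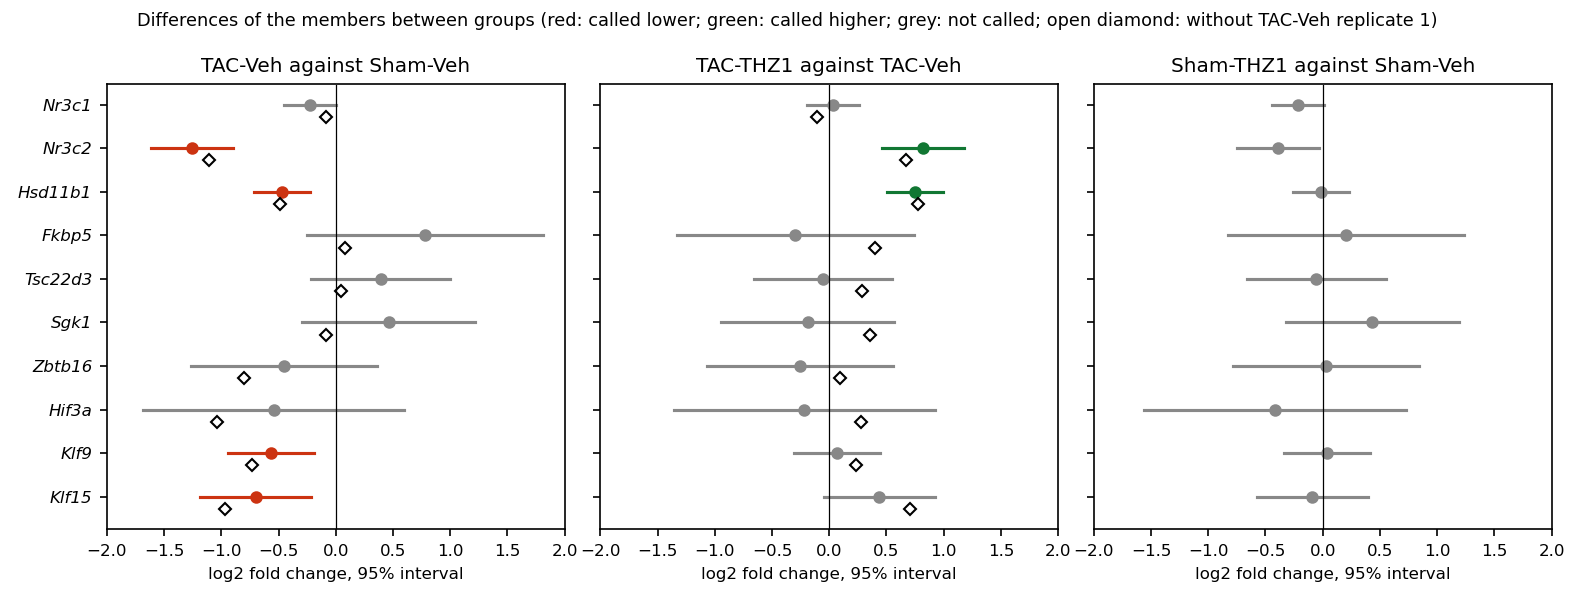
Log2 fold change of each gene with its 95% interval (limma) for TAC-Veh against Sham-Veh, TAC-THZ1 against TAC-Veh and Sham-THZ1 against Sham-Veh. Open diamonds give the value without TAC-Veh replicate 1. The intervals of Nr3c2 and Hsd11b1 lie below 0 under TAC and above 0 for THZ1 in TAC, and the open diamonds of Fkbp5, Tsc22d3 and Sgk1 sit near 0 in the first comparison.

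Nr3c2 encodes the mineralocorticoid receptor and lies at chr8:79423341-79768911 on the plus strand (NCBIM37). Its normalized counts were 577, 760.4, 681 and 686 in the Sham-Veh replicates, 540.3, 499.5, 597 and 432 in Sham-THZ1, 207, 254, 359.6 and 332 in TAC-Veh, and 439, 616, 397 and 570.0 in TAC-THZ1. Every TAC-Veh library was below every library of the other 3 groups. TAC lowered the mean of 676 ± 75.4 to 288 ± 70.3 (SD, n = 4 each). By the fit on the log2 scale, TAC-Veh was at 0.419 of the Sham-Veh level (log2 fold change -1.25, 95% interval -1.61 to -0.90, adjusted p = 2.49e-05, limma). TAC-THZ1 had a mean of 506 ± 104 and by the same fit was 1.76 times the TAC-Veh level (log2 fold change 0.82, SE 0.17, adjusted p = 0.00228, limma). Leaving out TAC-Veh replicate 1, which was the lowest of the 16 libraries, gave -1.11 and 0.67, and both stayed past the threshold. In the bulk tissue, fewer cells that express the gene and less RNA per cell cannot be told apart.

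Nr3c1 encodes the glucocorticoid receptor and lies at chr18:39570199-39650955 on the minus strand. It gave 2392, 2397, 2476 and 2329 normalized counts in Sham-Veh, 2049, 2088, 2213 and 1929.9 in Sham-THZ1, 1532, 2370.3, 2136 and 2294 in TAC-Veh, and 1883, 2046, 2151 and 2339 in TAC-THZ1. All Sham-THZ1 libraries lay below all Sham-Veh libraries, whereas the other groups overlapped, and the lowest of the 16 values was TAC-Veh replicate 1. The difference of TAC-Veh from Sham-Veh was -0.22 on the log2 scale (95% interval -0.45 to 0.0022, adjusted p = 0.0989, limma) and -0.08 without that library. It was -0.29 and passed the test without TAC-Veh replicate 2 (adjusted p = 0.0436, limma). TAC-THZ1 differed from TAC-Veh by 0.03 (95% interval -0.19 to 0.26), and by -0.11 without TAC-Veh replicate 1 (adjusted p = 0.245, limma). The 2 receptors thus had different values under TAC, 0.419 of the Sham-Veh level for Nr3c2 and 0.857 for Nr3c1, and whether these 2 changes differ from each other was not tested.

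Hsd11b1 encodes the reductase of the endoplasmic reticulum that regenerates active glucocorticoid from its inactive 11-keto form, and lies at chr1:195047824-195090248 on the minus strand. Its normalized counts were 473, 431, 479 and 422 in Sham-Veh, 484, 469, 441 and 393 in Sham-THZ1, 339.8, 309.6, 332 and 320.3 in TAC-Veh, and 686, 519, 604 and 421 in TAC-THZ1. The 4 TAC-Veh mice lay close together and below all the others, and 3 of the 4 TAC-THZ1 mice were above every sham mouse. The mean fell from 451 ± 29.2 to 325 ± 13.2 with TAC (SD, n = 4 each, log2 fold change -0.47, SE 0.12, adjusted p = 0.00362, limma). With THZ1 under TAC it reached 557 ± 114, and by the fit on the log2 scale TAC-THZ1 was 1.68 times TAC-Veh (log2 fold change 0.75, SE 0.12, adjusted p = 0.000305, limma). Against Sham-THZ1, TAC-THZ1 was 0.30 higher on the log2 scale and missed the threshold (adjusted p = 0.0687, limma). Without TAC-THZ1 replicate 4, the lowest of its group, that difference was 0.43 and passed (adjusted p = 0.00993).

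The other enzymes that make, activate or inactivate the hormones were mostly near or at 0. Hsd11b2, which inactivates glucocorticoid and so protects the mineralocorticoid receptor, ranged from 0 to 2.35 normalized counts. Both Cyp11b1 and Cyp11b2, the last enzymes of corticosterone and aldosterone synthesis, were at 0 in all 16 libraries, and Cyp11a1 did not exceed 6.93. Of 12 listed genes of steroid metabolism and supply, 5 could be tested. With TAC 1 of these rose and 1 fell, beside 21.4% and 23.6% of all genes. Star, which carries cholesterol into mitochondria for steroid synthesis, rose from 25.8 ± 7.37 to 389 ± 256 normalized counts (log2 fold change 3.71, adjusted p = 1.06e-06, limma) and was at 70.4 ± 23.8 in TAC-THZ1 (log2 fold change -2.32 against TAC-Veh, adjusted p = 0.000276). Abcb1a, an efflux pump that accepts glucocorticoids, fell with TAC (log2 fold change -0.49, adjusted p = 0.0141, limma). H6pd, which supplies Hsd11b1 with its cofactor, differed by -0.02 with TAC and by -0.12 with THZ1 under TAC, and did not pass the test in either.

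Fkbp5 encodes a co-chaperone that binds the receptors through heat shock protein 90, lowers their affinity for hormone and is itself strongly induced by them. Its gene lies at chr17:28536040-28654469 on the minus strand, and its element is printed above. It gave 437, 553, 348 and 574 normalized counts in Sham-Veh, 534, 493, 433 and 742 in Sham-THZ1, 3445, 485, 547 and 461 in TAC-Veh, and 809, 1123, 499 and 408 in TAC-THZ1. TAC-Veh replicate 1 was above every other library, and the remaining TAC-Veh libraries lay within the Sham-Veh range. The TAC-Veh mean was 1234 ± 1474 (SD, n = 4) with that library and 497 ± 44.4 (n = 3) without it. Against Sham-Veh the log2 fold change was 0.78 (95% interval -0.25 to 1.81, adjusted p = 0.208, limma), and 0.08 without replicate 1 (adjusted p = 0.837). DESeq2 on the recovered reads, with all libraries, gave 1.37 and called it (adjusted p = 0.0468). TAC-THZ1 against TAC-Veh gave -0.30 with it and 0.40 without it, and neither passed the test.

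Tsc22d3 encodes GILZ, a leucine zipper protein through which glucocorticoids restrain inflammation, and lies at chrX:137074067-137135198 on the minus strand. Its normalized counts were 1870.1, 2098, 1527 and 2352 in Sham-Veh, 2180.3, 1711, 2202 and 1470.0 in Sham-THZ1, 5195, 1951, 2412 and 1709 in TAC-Veh, and 3174, 3077, 1569.7 and 2347 in TAC-THZ1. After TAC-Veh replicate 1, the next highest values were TAC-THZ1 replicates 1 and 2. The difference of TAC-Veh from Sham-Veh was 0.39 on the log2 scale (95% interval -0.21 to 1.00, adjusted p = 0.282, limma) and 0.05 without TAC-Veh replicate 1. THZ1 under TAC gave -0.05 (95% interval -0.66 to 0.55) with it and 0.29 without.

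Sgk1 encodes a kinase that both hormones induce and that raises sodium channel activity, and lies at chr10:21601990-21719709 on the plus strand. It gave 1479.8, 1295, 948 and 1719 normalized counts in Sham-Veh, 2104, 1811, 1794 and 1519 in Sham-THZ1, 5688, 1176, 1425 and 1184 in TAC-Veh, and 1799, 1612, 1666 and 1395 in TAC-THZ1. As with Fkbp5, 1 TAC-Veh mouse was far above the rest, and the other 3 lay within the Sham-Veh range. Its log2 fold change with TAC was 0.46 (95% interval -0.29 to 1.22, adjusted p = 0.310, limma) and turned to -0.08 without that mouse. With THZ1 under TAC it was -0.19, and 0.36 without that mouse (adjusted p = 0.0946, limma). Of the sham groups, Sham-THZ1 averaged 1807 ± 239 and Sham-Veh 1360.4 ± 325 (SD, n = 4 each), with overlapping libraries and a log2 difference of 0.43 that did not pass the test (adjusted p = 0.886, limma).

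Zbtb16 encodes a zinc finger repressor (PLZF) that is induced by glucocorticoid in many cell types, and lies at chr9:48462416-48644050 on the minus strand. Its normalized counts were 844, 1511, 722 and 1481 in Sham-Veh, 974, 1523, 987 and 1012 in Sham-THZ1, 1637, 379.7, 854 and 730.0 in TAC-Veh, and 908, 826, 327 and 773 in TAC-THZ1. All TAC-THZ1 libraries were below all Sham-THZ1 libraries, yet the log2 difference between these groups, -0.74, missed the threshold (SE 0.38, adjusted p = 0.168, limma). TAC-Veh against Sham-Veh gave -0.45 (95% interval -1.26 to 0.36, adjusted p = 0.356, limma) and, without the TAC-Veh mouse that was highest of all 16, -0.80 (adjusted p = 0.0760). THZ1 under TAC gave -0.26 (adjusted p = 0.653, limma) with that mouse and 0.093 without it (adjusted p = 0.864).

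Hif3a lies at chr7:17616856-17647776 on the minus strand. It gave 24.4, 52.1, 42.4 and 54.0 normalized counts in Sham-Veh, 32.2, 20.7, 38.7 and 34.4 in Sham-THZ1, 79.9, 17.9, 23.8 and 17.9 in TAC-Veh, and 38.2, 57.3, 6.51 and 21.8 in TAC-THZ1. The TAC-Veh group held the highest value of the 16 in replicate 1 and 3 values below every Sham-Veh library. Its log2 fold change with TAC was -0.54 (95% interval -1.68 to 0.60, adjusted p = 0.435, limma) and -1.04 without replicate 1 (adjusted p = 0.103). With THZ1 under TAC it was -0.22 (95% interval -1.36 to 0.92), and 0.27 without TAC-Veh replicate 1 (adjusted p = 0.708, limma).

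Klf9 encodes a Krüppel-like factor that glucocorticoids switch on in most tissues, and lies at chr19:23215716-23241401 on the plus strand. Its normalized counts were 2463, 2875, 2569 and 2904 in Sham-Veh, 2983, 2567, 2786 and 2761 in Sham-THZ1, 2607, 1256, 1681 and 2014 in TAC-Veh, and 1982, 2512, 1427 and 1872 in TAC-THZ1. TAC-Veh overlapped Sham-Veh through replicate 1 alone, and all TAC-THZ1 libraries were below all Sham-THZ1 libraries. With TAC it fell to 0.677 of the Sham-Veh level (log2 fold change -0.56, SE 0.18, adjusted p = 0.0165, limma), and without TAC-Veh replicate 1 the change was -0.73 (adjusted p = 0.00153). Leaving out TAC-Veh replicate 2, the lowest, gave -0.38 and lost the call (adjusted p = 0.0624, limma). Klf9 was the 1 gene of the 10 that also passed between TAC-THZ1 and Sham-THZ1 (log2 fold change -0.54, SE 0.18, adjusted p = 0.0377, limma), a comparison in which 24.2% of all genes were called. That call was lost without any 1 of the 4 Sham-THZ1 libraries and without TAC-THZ1 replicate 1, 3 or 4, with adjusted p of 0.0555 to 0.120.

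Klf15 encodes the Krüppel-like factor that links glucocorticoid to amino acid and glucose metabolism and restrains cardiac hypertrophy, and lies at chr6:90412570-90425232 on the plus strand. It gave 973, 1291, 1088 and 1313 normalized counts in Sham-Veh, 1101, 1008, 1143 and 1104 in Sham-THZ1, 1246, 435, 733 and 646 in TAC-Veh, and 1091, 1203, 692 and 954 in TAC-THZ1. Again TAC-Veh replicate 1 lay within the sham range while the other 3 TAC-Veh mice were below every sham mouse. TAC lowered it to 0.615 of the Sham-Veh level (log2 fold change -0.70, SE 0.23, adjusted p = 0.0201, limma), and without replicate 1 the change was -0.97 (adjusted p = 0.000455). Without TAC-Veh replicate 2 it was -0.46 and no longer called (adjusted p = 0.0766, limma), and without Sham-Veh replicate 2 or 4 the adjusted p rose to 0.0552 and 0.0568. THZ1 under TAC gave 0.44 (SE 0.23, adjusted p = 0.161, limma), which became 0.71 and passed the test (adjusted p = 0.00753) once TAC-Veh replicate 1 was left out.

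Some markers of cell types differed with TAC and with THZ1 under TAC. Among all tested genes, 21.4% were higher and 23.6% lower with TAC, and 15.1% higher and 14.2% lower with THZ1 under TAC. The marker lists are short, and their counts are to be read beside these shares. The sum of 8 cardiomyocyte markers was 977515 to 1377337 normalized counts in TAC-Veh and 1460023 to 1771754 in TAC-THZ1, with 3 of the 8 lower with TAC and 4 higher with THZ1 under TAC. The sum of 5 fibroblast markers lay between 18078 and 20008 in Sham-Veh, between 35575 and 46341 in TAC-Veh and between 22179 and 33130 in TAC-THZ1, with 3 of the 5 higher with TAC and 3 lower with THZ1. All 3 pericyte markers were lower with TAC and 2 higher with THZ1 under TAC, with sums of 26994 to 28730 in Sham-Veh, 15352 to 23907 in TAC-Veh and 18772 to 20689 in TAC-THZ1. With TAC 3 of 5 macrophage markers and 2 of 3 epicardial markers were higher, and of 5 endothelial markers 1 was higher and 2 were lower in both comparisons. Adipocyte markers, of interest because fat expresses Hsd11b1, summed to at most 23.0 normalized counts in any library. The part of these shifts in the values of Nr3c2, Hsd11b1, Klf9 and Klf15 was not tested.

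In sham-operated mice THZ1 changed none of the 10 genes by limma on all 16 libraries, where 0.0675% of all tested genes were called. One of the 10, Nr3c2, had an unadjusted p under 0.05 (log2 fold change -0.39, adjusted p = 0.692), and edgeR and DESeq2 on the recovered reads also called 0. The fit of all libraries uses 1 spread per gene for every group. The chi-square per degree of freedom between the reads of 2 replicates was 3.06 to 7.82 in the sham groups. In TAC-Veh it was 53.1 to 98.3, so TAC-Veh mice differed more from each other. When only the 8 sham libraries were fitted, 3.49% of all genes were called, and of the 10, Nr3c2 and Nr3c1 were called (adjusted p = 0.0404 and 0.0198, limma), with log2 fold changes of -0.39 and -0.21. The THZ1 difference itself depended on the surgery for 2 genes. The interaction, which is the THZ1 difference under TAC minus that under sham, was 1.21 for Nr3c2 (SE 0.24, adjusted p = 0.00707, limma) and 0.77 for Hsd11b1 (SE 0.16, adjusted p = 0.0106), where 10.0% of all genes passed. For Klf15 it was 0.53 (adjusted p = 0.311, limma), and 0.80 (adjusted p = 0.0418) without TAC-Veh replicate 1.

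The library TAC-Veh replicate 1 carried high levels of many other genes that glucocorticoids are known to induce. Of 24 tested genes of a list of such targets (the 10 genes left out), 16, or 66.7%, had their highest value of the 16 libraries there, beside 19.3% of all tested genes. Fam107a, an actin-binding stress-response gene, read 1187 normalized counts in this library, 55.8 to 104 in the other 3 TAC-Veh libraries and at most 169 in any other library. Ddit4, an inhibitor of mTORC1, read 3594 there and 486 to 606 in the other TAC-Veh libraries. Of the metallothioneins, Mt2 read 6403 beside 543 to 1082 and Mt1 7918 beside 1388 to 2322. Map3k6 read 1875 beside 361 to 366, and Pdk4, which turns the heart from glucose to fat oxidation, 35683 beside 6821 to 9245. Not every gene of the list was high in this library. Fbxo32 read 1484 there, below the 1667 to 2066 of the other 3 TAC-Veh libraries. Foxo1 (627 beside 498 to 681) and Foxo3 (1392 beside 1026 to 1650) lay within the range of those libraries. Per1, a clock gene that glucocorticoids induce and that was counted with the glucocorticoid-induced genes, read 2354 there and at most 2022 elsewhere. Of 16 other circadian clock genes, none was highest and 5 (31.3%) were lowest in it, beside 19.5% of all tested genes, and 4 of 8 mineralocorticoid-responsive genes were highest. The same library also had the highest values of the stress genes Nppa (199788), Nppb (27977) and Myh7 (75096) of all 16. Its values are those of 1 mouse, and what set that mouse apart was not tested.

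**Figure D3:**
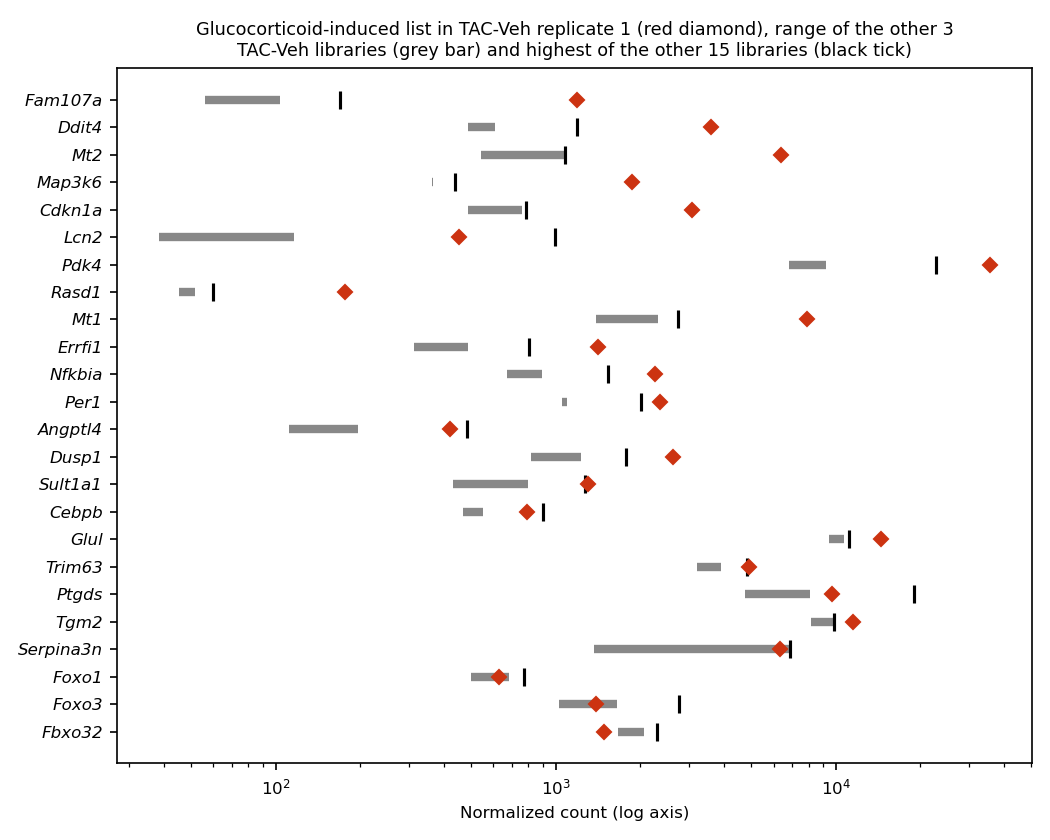
Normalized counts (log axis) of the 24 tested glucocorticoid-induced genes in TAC-Veh replicate 1, beside the range of the other 3 TAC-Veh libraries and the highest value among the other 15 libraries. For 16 of the 24 the value of TAC-Veh replicate 1 lies above that of every other library.

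Within groups, the levels of several hormone targets varied together from mouse to mouse, but most of these relations did not pass the test without TAC-Veh replicate 1. For this description the group mean was subtracted from each log2 value and the deviations of the 16 libraries were correlated for the 45 pairs of the 10 genes, with exact permutation tests within groups, two-sided and adjusted over the 45 pairs. By Pearson's r, 13 pairs had an adjusted p under 0.05, 11 of them positive and all 11 among the 21 pairs of the 7 responsive genes. Pairs of other genes were not correlated in this way. How large a share of them would pass is therefore not known, and the counts do not set these genes apart from others. By Spearman's rho, 6 pairs passed, 5 of them positive. Without TAC-Veh replicate 1, with its group mean taken again, 1 pair passed by r and 3 by rho. The pair that passed in every case was Hif3a with Klf15. Its r was 0.87 (permutation p = 3.01e-06, the smallest possible here, adjusted p = 0.000136) and its rho 0.96 (adjusted p = 0.000136), with r at 0.82 (permutation, adjusted p = 0.000543) without TAC-Veh replicate 1 and at 0.69 after the 2 libraries farthest from the median on the first gene were left out. For Klf9 with Klf15 the values were r = 0.93 (permutation p = 0.00116, adjusted p = 0.0196) and rho = 0.75 (permutation p = 0.0125, adjusted p = 0.0537), with r at 0.84 without the 2 farthest libraries. Without TAC-Veh replicate 1 that pair had an r of 0.89 (permutation, adjusted p = 0.0711) and a rho of 0.87 (adjusted p = 0.0327). These genes share libraries, depth and scaling, and the part of these in the correlations was not tested.

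Nr3c1 and its target Fkbp5 deviated in opposite directions. Across the 16 deviations r was -0.94 (permutation p = 0.00132, adjusted p = 0.0196) and rho -0.95 (permutation p = 8.44e-05, adjusted p = 0.00190). Without TAC-Veh replicate 1, r was -0.77 and no longer passed (permutation, adjusted p = 0.0802), whereas rho was -0.85 and did (adjusted p = 0.0244), and r was -0.79 without the 2 farthest libraries. For Nr3c1 with Sgk1, r was -0.87 (permutation, adjusted p = 0.0333) and rho -0.75 (permutation, adjusted p = 0.0537). That relation rested on a few libraries, with r at -0.41 without TAC-Veh replicate 1 (permutation, adjusted p = 0.183) and at -0.39 without the 2 farthest. Each group holds only 4 mice, too few to give the correlation within any 1 group.

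**Figure D4:**
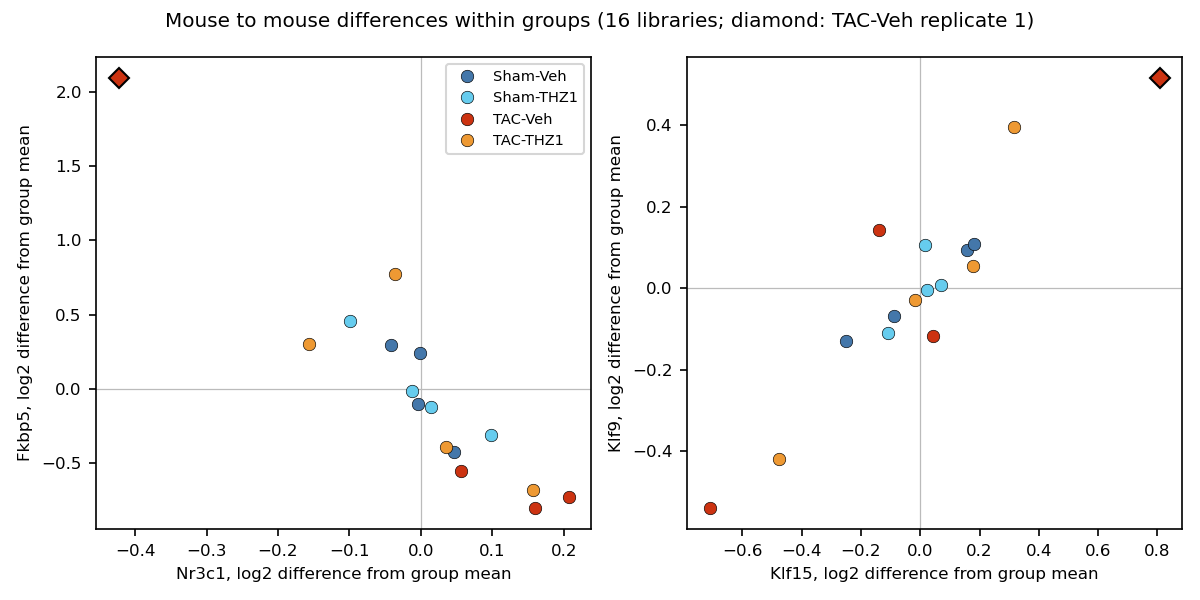
Deviation of each library from its group mean (log2 scale) for Nr3c1 against Fkbp5 and for Klf15 against Klf9, points colored by group, with TAC-Veh replicate 1 as a diamond. The Fkbp5 deviation falls as that of Nr3c1 rises (r = -0.94), and the Klf9 and Klf15 deviations rise together (r = 0.93), with r at -0.77 and 0.89 when the diamond is left out and its group mean taken again.

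Beyond the 10, the wider lists of the pathway were counted in the same fits. Of the 24 glucocorticoid-induced genes, 6 rose and 1 fell with TAC, beside 21.4% and 23.6% of all genes, and 2 rose and 4 fell with THZ1 under TAC, beside 15.1% and 14.2%. Their median log2 fold changes were 0.43 and -0.24, beside -0.0030 and 0.015 for all genes. These values rested on TAC-Veh replicate 1. Without it 4 rose and 3 fell with TAC and 5 rose and 2 fell with THZ1, with medians of -0.022 and 0.074 beside -0.0057 and 0.0092 for all genes. Serpina3n, an acute-phase protease inhibitor, rose by 3.79 with TAC and fell by 1.73 with THZ1 under TAC (adjusted p = 8.50e-05 and 0.0343, limma). Without that library its TAC change was 3.44 and its THZ1 difference of -1.38 missed the threshold (adjusted p = 0.0915, limma). Tgm2, a transglutaminase, rose by 0.73 with TAC (adjusted p = 8.85e-06), and by 0.64 without the library. Angptl4, an inhibitor of lipoprotein lipase, rose by 1.03 and fell with THZ1 by 1.96 (adjusted p = 0.0382 and 0.00169), but without the library the TAC value was 0.67 and not called (adjusted p = 0.133, limma), while the THZ1 value of -1.60 was. Ptgds, a prostaglandin D synthase, went the other way, higher with THZ1 under TAC by 0.97 (adjusted p = 0.00450, limma) and by 1.16 without the library, with 0.37 for TAC that did not pass. Of 8 tested mineralocorticoid-responsive genes, 4 rose and 2 fell with TAC, beside 21.4% and 23.6% of all genes. Without TAC-Veh replicate 1, 3 rose and 2 fell. With THZ1 under TAC 1 fell, beside 14.2% of all genes. Nedd4l, a ubiquitin ligase that removes sodium channels from the cell surface and is inhibited by Sgk1, fell with TAC by 0.50 (adjusted p = 0.000351, limma). Edn1, which encodes the vasoconstrictor endothelin-1, rose with TAC by 0.71 (adjusted p = 0.00299) and gave -0.46 with THZ1, short of the threshold (adjusted p = 0.0505).

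Of 12 chaperones and co-chaperones that hold the receptors, 3 rose and 2 fell with TAC, a total share close to the 45.0% of all genes called, and 4 rose and 1 fell with THZ1 under TAC, beside 15.1% and 14.2% of all genes. Hsp90aa1, the stress-inducible heat shock protein 90, rose by 1.08 with TAC and fell by 0.67 with THZ1 (adjusted p = 9.15e-07 and 0.000260, limma). Fkbp4, the co-chaperone that opposes Fkbp5 in helping the receptor to the nucleus, went the other way, with -0.77 and 0.65 (adjusted p = 0.000458 and 0.00356). Of 11 receptor coregulators, 9 fell and none rose with TAC (median -0.27), beside 23.6% of all genes lower, and 2 rose with THZ1 under TAC, a share near the 15.1% of all genes higher. Without TAC-Veh replicate 1 the 9 became 6 and the 2 became 1. Ncoa1 and Ncoa2, coactivators of the steroid receptors, fell by 0.58 and 0.52 with TAC (adjusted p = 1.92e-05 and 6.81e-05, limma), and Ppargc1a, a coactivator of mitochondrial genes, fell by 0.79 and rose by 0.70 with THZ1 (adjusted p = 0.0110 and 0.0307). Esr1, an estrogen receptor, did not pass in either comparison, with 0.45 for TAC and -0.24 for THZ1 under TAC.

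Genes known to lie downstream of Klf15 in metabolism and repolarization formed a list of 5. All 5 fell with TAC, beside 23.6% of all genes, and all 5 rose with THZ1 under TAC, beside 15.1%. Their medians were -0.86 and 0.66, beside -0.0030 and 0.015 for all genes. The list is short and was chosen with earlier results of these data known. Klf15 itself fell with TAC but did not pass for THZ1 under TAC (adjusted p = 0.161, limma). Gpt, an alanine aminotransferase, fell by 1.42 and rose by 1.36 (adjusted p = 7.03e-06 and 6.32e-05, limma). Kcnip2, a subunit of the transient outward potassium channel, fell by 1.39 and rose by 0.97 (adjusted p = 3.32e-06 and 0.000311), and Slc2a4, the insulin-responsive glucose transporter, fell by 0.68 and rose by 0.66 (adjusted p = 1.45e-05 and 0.000107). Without TAC-Veh replicate 1 the counts were 5 and 4. For 4 of the 5, the lowest value of all libraries was that of TAC-Veh replicate 2. For 3 of the 5 the THZ1 difference was larger under TAC than under sham by the interaction test, which 10.0% of all genes passed. Whether Klf15 had a part in these changes was not tested.

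The genes whose level over the 16 libraries was most like that of each member were sought among the 10308 genes that averaged 100 normalized counts or more, by Pearson's r on the log2 scale and as a description only, since all points share the group differences and the scaling. For Nr3c2 these were Hlf (0.97), Kcnn2 (0.96) and Rbm20 (0.95), and for Nr3c1 they were Polr3b (0.91), Gja1 (0.91) and Usp24 (0.89). Hsd11b1 had 5730469M10Rik (0.88), Clec3b (0.88) and Prosc (0.86). Its likeness to any gene was thus lower than that of Nr3c2. Fkbp5 was closest to Bcl2l1 (0.95), Plscr2 (0.94) and Map3k6 (0.93), Tsc22d3 to Ddit4 (0.90), Mbd2 (0.90) and Glul (0.89), and Sgk1 to Csrnp1 (0.92), Ddit4 (0.91) and 8430408G22Rik (0.91). Ddit4 and Map3k6 are 2 of the genes given above as highest in TAC-Veh replicate 1. Zbtb16 went with Cd300lg (0.90), Timp4 (0.88) and Supt5h (0.87), Klf9 with Mtap7 (0.96), Gpr116 (0.96) and Vwa3a (0.94), and Klf15 with Fam134b (0.96), Snrk (0.94) and Pim3 (0.94). Hif3a, with a mean of 35.1 normalized counts, was below the level set for this comparison.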

How the data were processed

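RNA-seq libraries (stranded, poly(A)-selected) from the 16 ventricle samples were aligned by the authors with TopHat2 2.1.1 to mm9 and counted per gene with HTSeq. The deposited values are a normalized signal, namely read counts divided by DESeq2 size factors, in 1 table of the whole series. Dividing by the smallest step of each library returned whole reads for 100% of values at a tolerance of 0.01. Time of day is not given in the sources used here. Log2(value + 1) was tested with limma 3.58.1 (R 4.3.3), 1 mean per group, all 16 libraries, for the 13331 genes with at least 10 normalized counts in 4 libraries. Fold changes, and levels given as a share or multiple of another group, are on this scale, which understates those of low genes such as Hif3a. They differ slightly from ratios of the printed means. P-values were adjusted by Benjamini-Hochberg over all tested genes and called under 0.05. Totals of 21431703 to 35812869 recovered reads per library set the counting error, which is included in the spread between mice.

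The edgeR 4.0.16 quasi-likelihood test on the recovered reads called 6067 genes for TAC and 3981 for THZ1 under TAC, and DESeq2 1.42.0 called 6138 and 4170, beside 6003 and 3918 by limma. Fitting only the groups compared called 4734 and 1399, and array weights 4962 and 2412. For THZ1 under TAC these were 10.5% and 18.1% of tested genes, fewer than in the main fit. The shares of all genes printed beside counts are those of the main fit unless another fit is named. Further alternatives were TMM and upper quartile scaling, pseudocounts, filters, a replicate block, thresholds and leaving out each library. The list values and the correlations without TAC-Veh replicate 1 were added after seeing the data. The scripts were tested on simulated data. The 10 genes and the lists were chosen with earlier results of these data known. Named genes were the 10, the 2 of each list with the smallest adjusted p for TAC and the 2 for THZ1 under TAC, and the 3 nearest genes of each of the 10. The genes named as high in TAC-Veh replicate 1, and those near or at 0, were chosen after their values were seen. Cebpd, 1 of 25 listed glucocorticoid-induced genes, was not analysed here. Results of some listed genes that the rule would name are not reported here. Positions come from the NCBIM37 annotation. Permutation tests and other calculations used Python 3.11.15, pandas 2.3.3, NumPy 2.4.6 and SciPy 1.17.1, and plots Matplotlib 3.10.9.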

Additional observations from a re-analysis of the deposited data

Results flagged for a closer look

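In 40 sets of 4 libraries (10 genes in 4 groups), 4 held a library whose gap to the nearest other was a larger share of the whole range than the 95% critical value of Dixon's test allows, where chance gives about 1 in 20 sets. In 3 of these the library was TAC-Veh replicate 1, with 3445 normalized counts of Fkbp5, 5688 of Sgk1 and 79.9 of Hif3a. The fourth was Sham-THZ1 replicate 2, with 1523 normalized counts of Zbtb16 beside 974 to 1012 in the other 3. The 3 sets of TAC-Veh share a mouse and are not independent of each other.

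The THZ1 difference under TAC differed from that under sham for Nr3c2, by 1.21 on the log2 scale, and for Hsd11b1, by 0.77, both by the interaction test of limma (adjusted p = 0.00707 and 0.0106). For Nr3c2 the groups moved in opposite directions, 0.82 under TAC and -0.39 under sham, of which the sham difference did not pass the test.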

How the results depend on the processing

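For the genes called, 229 of 241 values under the alternatives kept their direction and their side of the threshold, 12 lost the call and none reversed. For those not called, 1022 of 1094 kept both, 12 passed the threshold and 60 changed sign, 50 of these when 1 library was left out. The count called for TAC (4) became 2 at an adjusted p under 0.01 and lay between 3 and 4 when each library was left out. These counts were not always of the same genes. Without TAC-Veh replicate 2 both Klf9 and Klf15 lost the call while Nr3c1 gained it. With a fold threshold the count became 1, Nr3c2, which fell. That threshold was a log2 fold change of 1, or 0.89 for THZ1 under TAC, in either direction. The study set cut-offs of these sizes only for a rise with TAC and a fall with THZ1, and its methods give none for the other comparisons. For THZ1 under TAC (2) it became 0 with the fold threshold, with a range of 2 to 3, and for THZ1 in sham (0) it was 2 in a fit of the compared groups alone and with array weights, with a range of 0 to 0. For TAC-THZ1 against Sham-THZ1 (1) it was 2 with upper quartile scaling, with the replicate block and by DESeq2, each adding Hsd11b1, and 0 under the stricter p and the fold threshold, with a range of 0 to 1. The Klf9 call there was lost in 7 of these, without any 1 Sham-THZ1 library or TAC-THZ1 replicate 1, 3 or 4 (adjusted p of 0.0555 to 0.120). For the interaction (2) it was 1 under the stricter p and the fold threshold, with a range of 2 to 3. Klf15 lost its TAC call when only the compared groups were fitted (adjusted p = 0.0592, limma). DESeq2 called Fkbp5 with TAC (log2 fold change 1.37, adjusted p = 0.0468), and limma called Nr3c1 without TAC-Veh replicate 2 (-0.29, adjusted p = 0.0436).

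Signs changed for differences that were not called. Array weights gave, for THZ1 under TAC, -0.015 for Nr3c1, 0.16 for Tsc22d3, 0.064 for Sgk1, 0.013 for Zbtb16 and 0.13 for Hif3a, and 0.011 for Nr3c2 between the TAC-THZ1 and Sham-THZ1 groups. For Zbtb16 in sham, edgeR and DESeq2 gave -0.021 and -0.020, and for the Tsc22d3 interaction -0.088 and -0.10. Leaving out each library gave a range of -0.081 to 0.68 for Sgk1 with TAC. For THZ1 under TAC the ranges were -0.11 to 0.10 for Nr3c1, -0.57 to 0.40 for Fkbp5, -0.25 to 0.29 for Tsc22d3, -0.40 to 0.36 for Sgk1, -0.61 to 0.093 for Zbtb16, -0.62 to 0.36 for Hif3a and -0.11 to 0.24 for Klf9. For THZ1 in sham they were -0.056 to 0.044 for Hsd11b1, -0.17 to 0.059 for Tsc22d3, -0.16 to 0.19 for Zbtb16 and -0.0044 to 0.076 for Klf9. Between TAC-THZ1 and Sham-THZ1 they were -0.031 to 0.073 for Nr3c1, -0.15 to 0.062 for Nr3c2 and -0.75 to 0.23 for Hif3a. For the interaction they were -0.77 to 0.20 for Fkbp5, -0.19 to 0.35 for Tsc22d3, -0.64 to 0.063 for Zbtb16, -0.21 to 0.78 for Hif3a and -0.15 to 0.20 for Klf9. Of 330 counts over the pathway lists, 319 stayed within 1.5 times of the reported count and 11 did not. The causes were not tested.

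Same-numbered libraries of different groups did not deviate together (r from -0.43 to 0.117 over 16 pairs, with the shared number giving the highest r in 2), so the numbers were not taken to pair mice. With the number as a block, the count of all genes called was 5838 for TAC and 3747 for THZ1 under TAC, and the 4 and 2 of the 10 genes called in these comparisons stayed 4 and 2. TAC-Veh replicates 1 and 2, which stood apart from the other libraries, the 4 mice per group and the few reads of Hif3a limit these results.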

Other observations

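Other families related to the 10 genes were counted in the same fits. Of 11 tested Krüppel-like factors other than Klf9 and Klf15, 1 rose and 2 fell with TAC, where 45.0% of all genes were called. With THZ1 under TAC 2 fell, a share near the 14.2% of all genes lower. Those 2 were Klf10 (log2 fold change -0.68, adjusted p = 0.00280, limma) and Klf11 (-0.58, adjusted p = 0.00631), both transforming growth factor beta-inducible repressors, and Klf10 was also the 1 that rose with TAC (0.41, adjusted p = 0.0302). Klf12 and Klf3 fell with TAC by 0.61 and 0.30 (adjusted p = 0.00115 and 0.0197, limma). Without TAC-Veh replicate 1 the 3 called with TAC became 1, Klf12, as Klf10 and Klf3 missed the threshold (adjusted p = 0.0540 and 0.0559, limma). Of 9 genes of the hypoxia-inducible factor system, to which Hif3a belongs, 2 rose and 2 fell with TAC (1 and 2 without that library). With all libraries the total called lay close to the 45.0% of all genes. Arnt2, a partner of the hypoxia-inducible factors, rose by 2.35 from a low level of 4.87 ± 0.794 normalized counts (SD, n = 4, adjusted p = 5.37e-05), and Egln1, the oxygen-sensing prolyl hydroxylase, fell by 0.53 (adjusted p = 0.000157). With THZ1 under TAC they changed by -1.70 and 0.46 (adjusted p = 0.00207 and 0.00144, limma). In that comparison 1 of the 9 rose and 2 fell, beside 15.1% and 14.2% of all genes. Leaving out TAC-Veh replicate 1 gave 2 higher and 2 lower. Arnt2 in Sham-Veh averaged less than the 10 normalized counts that the filter asks of 4 libraries. It was tested only because libraries of other groups were higher, so its calls depend on the filter.

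Of 4 tested relatives of Tsc22d3 and Sgk1, 1 fell with TAC and 1 rose with THZ1, both times Tsc22d4 (-0.63 and 0.35, adjusted p = 3.59e-05 and 0.00793, limma). When TAC-Veh replicate 1 was left out, 2 fell with TAC, as Tsc22d1 also passed (-0.35, adjusted p = 0.0130, limma). Among all tested genes, 23.6% were lower with TAC and 15.1% higher with THZ1 under TAC. Of 16 circadian clock genes, 1 rose and 7 fell with TAC, beside 21.4% and 23.6% of all genes, and 3 rose and 4 fell with THZ1 under TAC, beside 15.1% and 14.2%. Leaving out TAC-Veh replicate 1 gave 1 higher and 6 lower with TAC, and 4 higher and 4 lower with THZ1 under TAC. Hlf, an output transcription factor of the clock and the gene nearest to Nr3c2 in level, fell by 1.36 and rose by 0.80 with THZ1 (adjusted p = 9.33e-05 and 0.010, limma). Nr1d2, a nuclear receptor of the clock's feedback loop, fell by 0.61 (adjusted p = 4.74e-05). Bhlhe40 rose by 0.37 with TAC and fell by 0.65 with THZ1 (adjusted p = 0.0316 and 0.00194, limma). In sham mice THZ1 changed no tested gene of any of these lists by limma on all 16 libraries. The lists were not counted in the fit of the sham libraries alone, which called 3.49% of all genes.

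Neutrophil markers summed to 129 to 6920 normalized counts in TAC-THZ1 beside 34.9 to 205 in TAC-Veh. In the sham groups they summed to 42.5 to 362 with THZ1 and 14.9 to 42.4 with vehicle. The 2 markers tested were higher with THZ1 under TAC, beside 15.1% of all genes. Both had their highest value of the 16 libraries in TAC-THZ1 replicate 1. Their part in the values of Tsc22d3 and Fkbp5, which leukocytes also express, was not tested.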
